A study of Mus musculus with 6 samples.

Results

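The kinesin motor genes were described in proprioceptive sensory neurons of the mouse that supply 1 of 2 antagonist muscles of the lower leg. Members were all genes of the deposited 6-library table whose symbol starts with Kif followed by a digit, or with Kifc. This gave 43 of the 36814 genes in the table, each with 1 entry. By role, 15 were classed as transport motors, 15 as motors of cell division and 13 fell outside both classes. The class of cell division includes the pseudogene Kif22-ps, and the 13 others include the pseudogene Kifc5c-ps. The transport class held kinesin-1, kinesin-2, kinesin-3 and the pair Kif21a and Kif21b. The minus-end motors Kifc2 and Kifc3 were left outside both classes. RNA was measured in 6 pools of 25 to 30 neurons, 3 pools from neurons of the tibialis anterior (TA), which flexes the ankle, and 3 from neurons of the gastrocnemius (GS), which extends it. All pools came from a Pv::YFP line, a reporter for parvalbumin neurons. The tracer ctb-555, a labelled cholera toxin subunit, was injected into the muscle at postnatal day 0, and the traced neurons were collected by hand on postnatal day 1. The pools therefore hold neurons chosen by tracer uptake, and the labels call the pools biological replicates without naming their animals, so p-values measure the spread between these pools, which may be partly technical.

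Kinesins are ATP-driven motors that walk along microtubules. In axons, whose microtubules point their plus ends outward, kinesin-1 (Kif5), kinesin-2 (Kif3) and kinesin-3 (Kif1, Kif13, Kif16) carry vesicles, organelles and signalling cargo from the cell body towards the terminals. Other kinesins build the mitotic spindle or divide the cell, and some of these are also known from developing neurons. A proprioceptor has 1 axon that reaches both the muscle and the spinal cord, so its motors serve long distances.

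Values are RPKM, reads scaled to gene length and to the reads of the library. Levels of different genes were compared on this scale. How far amplification and read assignment shifted levels between genes was not tested. The 3 values of a muscle are always given in the order of replicates 1, 2 and 3. Differences are TA minus GS in log2(RPKM + 1), a scale that understates the change of low genes, tested with limma in the 10828 genes with a mean of at least 1 RPKM and adjusted over all of them. Between 7038296 and 21125960 net reads were assigned to genes in the TA libraries and between 8348117 and 12226365 in the GS libraries, and 15530 to 16302 genes had a read in TA against 12658 to 15432 in GS. Proprioceptor and sensory neuron markers, 13 genes, summed to 7266 to 8871 RPKM in TA and 7070 to 10091 RPKM in GS. Most of these sums came from Nefl and Nefm, with means of 4382 and 2727 RPKM over the 6 libraries. Of the 13 genes Pvalb, after which the line is named, was at 69.0, 93.5 and 47.8 RPKM in the TA pools, against 4.26, 10.4 and 31.3 RPKM in the GS pools. Its TA values all lay above its GS values, with a limma adjusted p of 0.168. Others of the 13 lay the opposite way. Spp1, which encodes osteopontin, was at 2.78, 6.31 and 6.97 RPKM in the TA pools, against 59.0, 72.0 and 38.5 RPKM in the GS pools, and was the only marker or partner gene called, with a limma adjusted p of 0.0150. Etv1, a transcription factor of proprioceptors, also had all GS pools above all TA pools, with a log2 difference of -0.50 and a limma adjusted p of 0.524. TA replicate 3 stood apart in skeletal muscle markers, which summed to 306 RPKM there against no more than 5.12 RPKM in any other library. GS replicate 2 stood apart in nociceptor markers, at 168 RPKM against 27.8 to 80.6 RPKM. Glial markers summed to 113 to 236 RPKM over the 6 libraries. The part of other cells in the kinesin values was not tested. In such pools fewer cells of a type and less RNA per cell cannot be told apart.

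Transport motors made up most kinesin transcript in every pool. Their summed level was 644, 546 and 737 RPKM in TA replicates 1, 2 and 3 and 501, 586 and 532 RPKM in GS replicates 1, 2 and 3. That was 90.6 ± 1.03% of all kinesin RPKM in TA and 90.0 ± 2.42% in GS (SD, n = 3). Mitotic motors summed to 6.33 ± 3.71 RPKM in TA pools and 5.17 ± 1.46 RPKM in GS pools, a share of 0.869 ± 0.401% and 0.871 ± 0.280%. Of the 15 transport genes, 12 had a mean of at least 1 RPKM and 10 of at least 10 RPKM, against 2 and 0 of the 15 mitotic genes. The highest value of any mitotic gene in any library was 3.82 RPKM, and 10 transport genes lay above that in every library.

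The subfamilies took nearly the same shares of the transport sum in both muscles. Kinesin-3 held 41.5 ± 0.435% in TA and 41.4 ± 1.51% in GS, and kinesin-1 held 30.8 ± 1.61% and 30.1 ± 0.649% (SD, n = 3). Kinesin-2 held 16.3 ± 0.879% and 16.4 ± 2.86%, and the Kif21 pair 11.4 ± 1.68% and 12.1 ± 1.12%. In each case the values of the muscles overlapped.

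**Figure D1:**
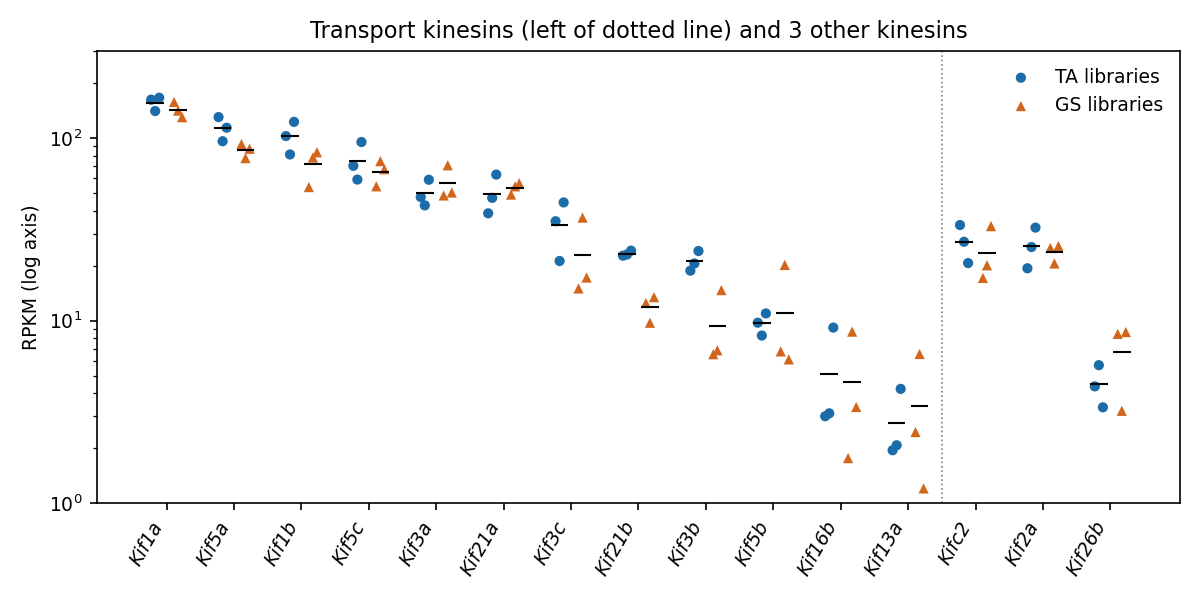
RPKM on a log axis for the 12 transport kinesins and 3 other kinesins with a mean of at least 1 RPKM, 1 point per library (circles TA, triangles GS) with a bar at the mean of each muscle. Kif1a is the highest in all 6 libraries, and the TA points of Kif21b (22.7 to 24.2) and Kif3b (18.8 to 24.1) lie above their GS points.

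Kif1a, the motor of synaptic vesicle precursors and dense core vesicles, was the most abundant kinesin in all 6 libraries. It was at 162, 140.3 and 166 RPKM in the TA pools, against 157, 141 and 129.8 RPKM in the GS pools, ranking 107th by mean level among the 10828 genes tested. The ranges overlapped, and the log2 difference between muscles was 0.13 with a 95% interval of -0.44 to 0.69. Kif1a lies on chromosome 1 from 94912033 to 94998442, minus strand, in mm9. Kif1b, a motor of mitochondria and synaptic vesicle precursors, was at 102, 81.2 and 122 RPKM in the TA pools, against 53.8, 78.1 and 83.5 RPKM in the GS pools. It was below Kif1a in all 6 libraries. GS replicate 1 was low for Kif1b and GS replicate 3 lay just above TA replicate 2, so the ranges overlapped, with a log2 difference of 0.51 ± 0.31 (SE) and a limma adjusted p of 0.610.

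The remaining kinesin-3 genes were far lower. Kif16b, an endosome motor, was at 3.001, 3.11 and 9.17 RPKM in the TA pools and 1.77, 8.71 and 3.37 RPKM in the GS pools. Kif13a, a motor of endosomes and secretory vesicles, was at 1.96, 2.08 and 4.24 RPKM in the TA pools and 2.46, 6.57 and 1.21 RPKM in the GS pools. Both were highest in TA replicate 3 among TA pools and in GS replicate 2 among GS pools, the libraries that stood apart. Kif13b reached at most 0.907 RPKM and Kif1c, a vesicle motor known from many tissues, at most 0.312 RPKM.

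Kinesin-1 is the classical anterograde motor of axons, and 2 of its heavy chains, Kif5a and Kif5c, are enriched in neurons while Kif5b is found in most cells. The 3 genes kept this order, Kif5a above Kif5c above Kif5b, in 6 of 6 libraries. Kif5a (chromosome 10, 126662755 to 126700136, minus strand, mm9) was at 130.0, 96.0 and 114 RPKM in the TA pools, against 92.6, 77.5 and 87.3 RPKM in the GS pools. The lowest TA pool was just above the highest GS pool, a pattern that 13.1% of all genes tested shared. The log2 difference was 0.39 ± 0.27 with an interval of -0.22 to 0.99 and a limma adjusted p of 0.658, so the gap did not pass the test.

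Kif5c was at 70.4, 59.2 and 94.99 RPKM in the TA pools and 54.4, 74.6 and 67.5 RPKM in the GS pools, with overlapping ranges and a log2 difference of 0.17 ± 0.31. Kif5b was at 9.75, 8.30 and 11.0 RPKM in the TA pools and 6.79, 20.2 and 6.15 RPKM in the GS pools. The single high value was GS replicate 2, where Kif5b made up 11.7% of kinesin-1 transcript against 3.82 to 5.08% in the other 5 libraries. Kif5a supplied 57.5 ± 5.16% of kinesin-1 transcript in TA and 53.1 ± 7.68% in GS (SD, n = 3).

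Kinesin-2 works as a trimer in which Kif3a pairs with either Kif3b or Kif3c, and Kif3a with Kif3b binds the adaptor Kifap3. Kif3a had the highest level of the 3 motor subunits, then Kif3c, then Kif3b, in 6 of 6 libraries. Kif3a was at 47.5, 42.8 and 59.1 RPKM in the TA pools and 48.5, 70.9 and 50.3 RPKM in the GS pools. Its log2 difference was -0.17 with an interval of -0.85 to 0.51.

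Kif3b (chromosome 2, 153117149 to 153159126, plus strand, mm9) was at 18.8, 20.6 and 24.1 RPKM in the TA pools, against 6.55, 6.89 and 14.7 RPKM in the GS pools. All 3 TA pools were above all 3 GS pools, and GS replicate 3 was the closest to TA. Means were 21.1 ± 2.69 and 9.38 ± 4.61 RPKM (SD, n = 3), a ratio of 2.25, resting on 1526 to 4473 net reads per TA library and 616 to 1400 per GS library. The log2 difference was 1.17 ± 0.39, or 0.93 beyond the median of all genes tested, with a limma unadjusted p of 0.0133 and an adjusted p of 0.365. It was the largest difference among the kinesins tested and did not pass the threshold over all genes.

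Kif3c was at 35.0, 21.2 and 44.4 RPKM in the TA pools and 15.0, 36.6 and 17.2 RPKM in the GS pools. TA replicate 2 was lower and GS replicate 2 higher than the rest of their groups, so the ranges overlapped, with a log2 difference of 0.57 ± 0.43. Kif3c overlaps 1110002L01Rik on the opposite strand over 1187 bases, and that gene was also highest in GS replicate 2, at 66.1 RPKM against 5.90 to 27.6 RPKM elsewhere. Its part in the Kif3c value was not tested. Kif17, a homodimeric kinesin-2 known from dendrites and cilia, reached at most 1.21 RPKM and was listed at 0 in GS replicate 1.

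Since both subunits share 1 partner, their levels were set against Kif3a within each library, a ratio that does not depend on the library total. The sum of Kif3b and Kif3c over Kif3a was 1.13, 0.977 and 1.16 in TA replicates 1, 2 and 3 and 0.445, 0.614 and 0.635 in GS replicates 1, 2 and 3. Every TA pool was above every GS pool. Kif3b alone over Kif3a was 0.428 ± 0.0462 in TA and 0.175 ± 0.103 in GS (SD, n = 3), also without overlap, whereas Kif3c over Kif3a overlapped. These ratios, and that of Kif21b to Kif21a, were singled out after their values were seen and are given with no test. Kifap3, the adaptor, averaged 59.6 ± 1.09 RPKM over the TA pools and 62.0 ± 12.2 RPKM over the GS pools, at a level near that of Kif3a.

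**Figure D2:**
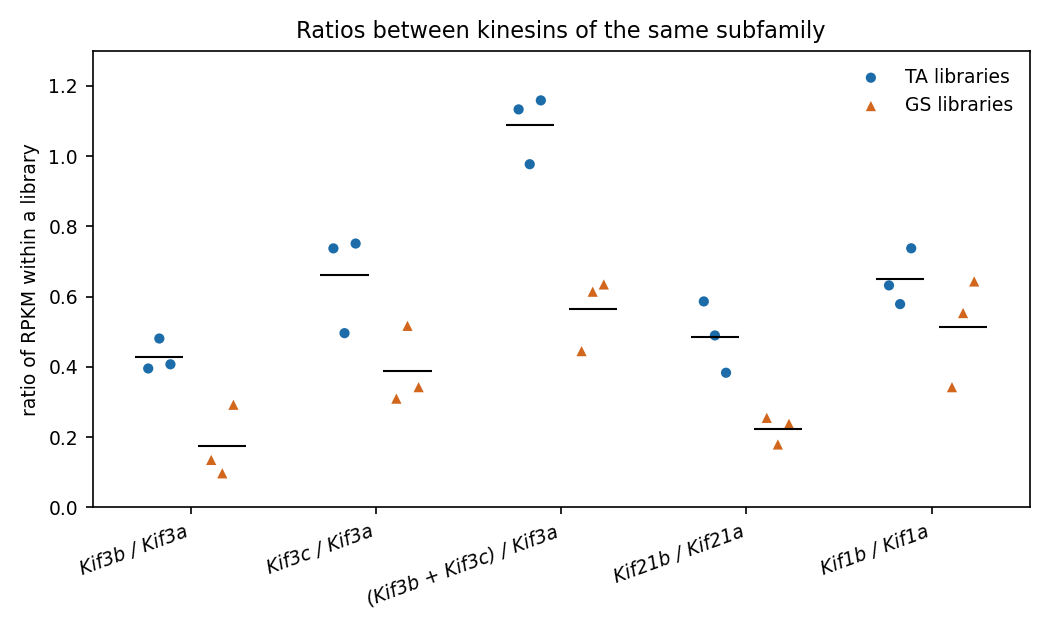
Ratio of RPKM within each library for pairs of kinesins of a subfamily, 1 point per library (circles TA, triangles GS) with a bar at the mean. For (Kif3b + Kif3c) / Kif3a the TA points lie at 0.977 to 1.16 and the GS points at 0.445 to 0.635, and Kif21b / Kif21a also separates, while Kif1b / Kif1a overlaps.

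The regions just upstream of the 3 Kif3 genes are shown because the ratio of these partners did not overlap between muscles. Each is the 250 bases before the RefSeq start in GRCm38.p6, which is a later build than the mm9 of the table: chr11:53567119-53567368 for Kif3a, chr2:153291166-153291415 for Kif3b and chr12:3364882-3365131 for Kif3c, all on the plus strand. Capitals mark CCAAT (the letters bound by NF-Y), TTTGAA (the cell cycle homology region) and GGGCGG (the GC box of Sp1), on either strand. In Kif3a a reversed CCAAT and a GC box share letters.
Kif3a: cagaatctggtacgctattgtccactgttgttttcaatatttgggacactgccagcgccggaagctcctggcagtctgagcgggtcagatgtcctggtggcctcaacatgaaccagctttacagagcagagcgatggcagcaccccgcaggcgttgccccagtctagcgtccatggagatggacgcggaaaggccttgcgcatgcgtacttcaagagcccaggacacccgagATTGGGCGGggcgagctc
Kif3b: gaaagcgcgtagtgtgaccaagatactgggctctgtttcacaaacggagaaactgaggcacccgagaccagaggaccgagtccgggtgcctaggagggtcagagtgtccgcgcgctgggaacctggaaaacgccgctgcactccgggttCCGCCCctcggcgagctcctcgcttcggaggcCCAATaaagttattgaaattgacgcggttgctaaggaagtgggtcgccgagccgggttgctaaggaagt
Kif3c: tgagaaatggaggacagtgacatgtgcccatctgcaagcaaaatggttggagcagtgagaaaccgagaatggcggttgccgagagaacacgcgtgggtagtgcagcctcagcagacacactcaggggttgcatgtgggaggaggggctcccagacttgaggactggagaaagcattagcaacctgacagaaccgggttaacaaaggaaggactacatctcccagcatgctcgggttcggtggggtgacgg
Kif3a and Kif3b both hold a CCAAT and a GC box, and none of the 3 motifs is in the Kif3c window.

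Kif21a and Kif21b, kinesin-4 motors that act on microtubule growth in axons and dendrites, were measured in all 6 libraries, with Kif21a above Kif21b in each. Kif21a was at 38.7, 47.0 and 63.0 RPKM in the TA pools and 49.0, 54.3 and 56.5 RPKM in the GS pools, with the GS pools inside the TA range and a log2 difference of -0.13 ± 0.31. Kif21b (chromosome 1, 138027966 to 138074591, plus strand, mm9) was at 22.7, 23.0 and 24.2 RPKM in the TA pools, against 12.5, 9.74 and 13.5 RPKM in the GS pools. The TA pools were tightly grouped and all above the GS pools. Means were 23.3 ± 0.777 and 11.9 ± 1.93 RPKM (SD, n = 3), a ratio of 1.96. The log2 difference was 0.92 ± 0.33, or 0.69 beyond the median of all genes, with a limma unadjusted p of 0.0180 and an adjusted p of 0.395. Kif21b overlaps no other annotated gene. Within libraries, Kif21b over Kif21a was 0.586, 0.490 and 0.383 in TA replicates 1, 2 and 3 and 0.255, 0.179 and 0.238 in GS replicates 1, 2 and 3, again without overlap and with no test.

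Among kinesins outside the transport and mitotic classes, 2 were abundant. Kifc2, a minus-end-directed kinesin-14 of neurons, was at 33.4, 27.0 and 20.7 RPKM in the TA pools and 17.1, 20.1 and 32.9 RPKM in the GS pools. Kif2a, a kinesin-13 that takes microtubules apart and limits the growth of axon branches, was at 19.4, 25.3 and 32.3 RPKM in the TA pools and 25.0, 20.6 and 25.6 RPKM in the GS pools. Neither separated the muscles. Kif26b, an atypical kinesin known from cell adhesion and polarity, was at 4.37, 5.71 and 3.36 RPKM in the TA pools and 8.47, 3.21 and 8.66 RPKM in the GS pools, where GS replicate 2 lay below all TA pools and the other GS pools above them. It overlaps Gm16564 on the opposite strand, which was highest in GS replicate 3 at 6.45 RPKM, and whose part in the Kif26b values was not tested.

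The minus-end motor Kifc3 reached at most 1.69 RPKM. Of the 6 kinesins of cilia and Hedgehog signalling in the table, none had a mean of 1 RPKM. Kif7, which acts at the ciliary tip in Hedgehog signalling, reached 1.39 RPKM in TA replicate 3 and stayed at or below 0.411 RPKM in the other libraries. Kif9, a cilium motor, was at 0.275, 0.605 and 0.624 RPKM in the TA pools and 0, 0.0785 and 0.0917 RPKM in the GS pools, on 19 to 93 net reads per TA library and at most 7 per GS library. Kif27 reached at most 0.460 RPKM and Kif19a at most 0.189 RPKM. Kif6 and Kif24 each had a net value below 0 in GS replicate 1 and were left out of all sums. Kif12, Kif26a, Kif2b and the pseudogenes Kif22-ps and Kifc5c-ps were listed at 0 in all 6 libraries.

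Mitotic kinesins were low in all pools and uneven between them. Of the 15 genes, 10, 10 and 11 had a value above 0 in TA replicates 1, 2 and 3 and 7, 9 and 12 in GS replicates 1, 2 and 3. High values fell in different libraries for different genes. Kif22, a chromokinesin that moves chromosome arms, was at 0.476, 0.110 and 3.82 RPKM in the TA pools and 1.13, 0.589 and 0.258 RPKM in the GS pools, so its TA mean rests on replicate 3. Kif20b, which acts in cytokinesis and also in young neurons, was at 3.42 RPKM on 318 net reads in GS replicate 1 and between 0.0824 and 0.746 RPKM elsewhere. Kif4, a chromokinesin, and Kif14, a cytokinesis motor, were highest in GS replicate 3, at 1.93 and 1.34 RPKM. Kif23, the motor of the central spindle, was highest in GS replicate 2, at 1.78 RPKM. Kif11, the spindle motor that pushes the poles apart, was highest in TA replicate 3, at 1.22 RPKM, as were Kif18a, which dampens chromosome movements, and Kif15, a spindle motor, at 0.805 and 0.636 RPKM. Kif2c, the centromere depolymerase, reached 0.418 RPKM, in TA replicate 1. Kifc1 and Kifc5b reached at most 0.113 and 0.151 RPKM. These 2 genes are near-identical copies, as are Kif22 and its pseudogene, so how their reads were divided is uncertain.

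Kif20a, a cytokinesis motor, was the mitotic gene whose groups did not overlap. It was at 1.90, 1.31 and 2.01 RPKM in the TA pools, against 1.08, 0.260 and 1.06 RPKM in the GS pools. Its log2 difference was 0.63 ± 0.47 with a limma adjusted p of 0.679. Kif20a overlaps Cdc23 on the opposite strand over 2315 bases. Cdc23, a subunit of the anaphase-promoting complex, was at 1.95, 2.25 and 3.03 RPKM in the TA pools and 1.34, 2.27 and 1.68 RPKM in the GS pools, and its part in the Kif20a value was not tested.

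Markers of dividing cells, 23 genes, were low in the same pools. They summed to 6.23, 18.9 and 25.1 RPKM in TA replicates 1, 2 and 3 and to 9.60, 15.2 and 6.23 RPKM in GS replicates 1, 2 and 3, and 3 passed the filter. Prc1, with a value below 0 in GS replicate 2, is part of these sums and was at 3.67 RPKM in TA replicate 3. Mki67, the Ki-67 antigen, ranged from 0 in GS replicate 2 to 3.16 RPKM in TA replicate 2, and Cdc20 was listed at 0 in all 6. TA replicate 3 had the highest sum of these markers, of mitotic kinesins (10.6 RPKM) and of muscle markers. The other libraries did not keep the same order in both sums. There mitotic kinesins summed to 3.76 and 4.66 RPKM in TA replicates 1 and 2. In GS replicates 1, 2 and 3 they summed to 5.93, 3.49 and 6.09 RPKM. The part of dividing cells in the mitotic kinesin values was not tested.

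**Figure D3:**
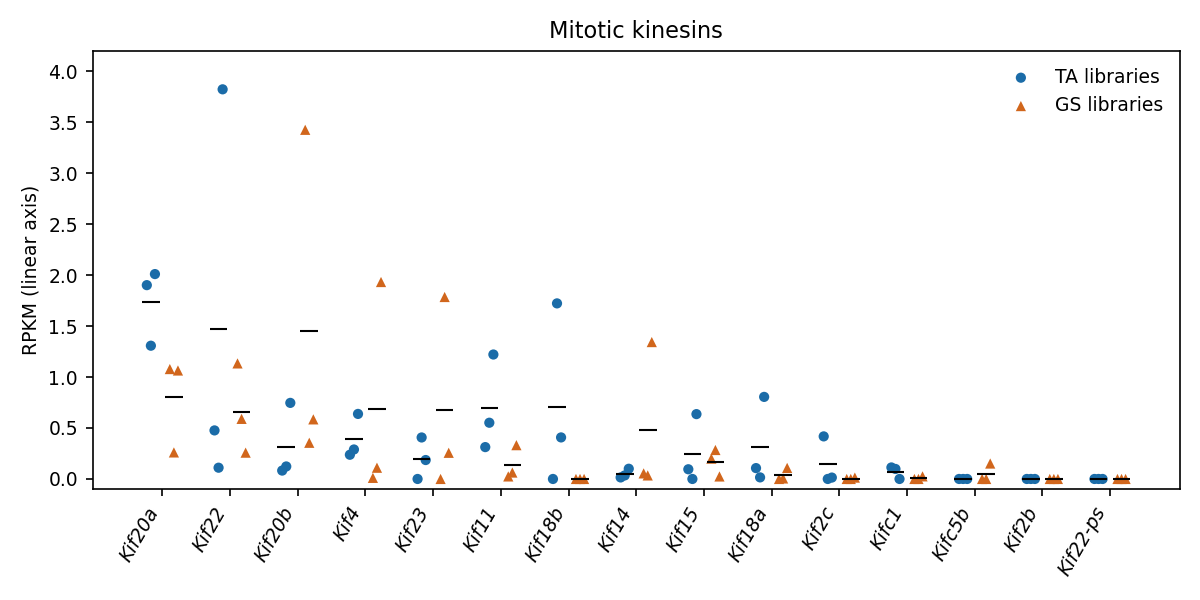
RPKM on a linear axis for the 15 mitotic kinesins, 1 point per library (circles TA, triangles GS) with a bar at the mean of each muscle. No point exceeds 3.82, and the highest points belong to single libraries, such as TA replicate 3 for Kif22 and GS replicate 1 for Kif20b.

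Upstream regions of transport and mitotic kinesins were compared for the same 3 motifs, which are known from cell cycle and housekeeping promoters. Of the 43 members 33 matched the RefSeq promoter table, giving 13 windows of 11 transport genes and 13 windows of 13 mitotic genes. CCAAT was in 9 of the 13 mitotic windows, 4 of the 13 transport windows and 33.8% of all 32851 promoters. TTTGAA was in 5 mitotic windows, 1 transport window and 16.0% of all promoters, and both together in 3, 0 and 5.55%. GGGCGG was in 6, 8 and 32.7%. The median GC content was 62.0% in mitotic, 69.2% in transport and 52.4% in all windows. Mitotic windows with both CCAAT and TTTGAA are shown as examples, from chr19:37376132-37376381, plus strand, for Kif11 and chr7:127042421-127042670, minus strand, for Kif22, in GRCm38.p6 with the same use of capitals.
Kif11: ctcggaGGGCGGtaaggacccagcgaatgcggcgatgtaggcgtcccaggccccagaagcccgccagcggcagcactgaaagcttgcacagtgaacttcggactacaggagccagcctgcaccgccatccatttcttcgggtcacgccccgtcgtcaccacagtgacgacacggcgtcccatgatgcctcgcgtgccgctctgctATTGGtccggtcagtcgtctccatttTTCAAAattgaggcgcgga
Kif22: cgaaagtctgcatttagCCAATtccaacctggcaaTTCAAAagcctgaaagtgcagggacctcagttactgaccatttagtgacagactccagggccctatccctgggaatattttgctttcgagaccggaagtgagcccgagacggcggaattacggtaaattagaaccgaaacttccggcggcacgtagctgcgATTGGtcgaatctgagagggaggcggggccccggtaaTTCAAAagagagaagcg
In both windows a CCAAT followed by a TTTGAA, each in reversed form, lies near the start site at the right end, and Kif22 holds a further copy of each near the left end. A match of letters is a description of the window and no evidence of binding.

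The muscles were then compared across all kinesins that passed the filter, which asks whether neurons of a flexor and of an extensor differ in their motors. None of the 17 kinesins tested was called in limma at an adjusted p under 0.05, in a comparison where 0.305% of 10828 genes were called. At an unadjusted p under 0.05 there were 2, Kif3b and Kif21b, or 2 of 17 against 10.4% of all genes. In 4 of 17 every pool of 1 muscle exceeded every pool of the other, in Kif3b, Kif21b, Kif5a and Kif20a, each time higher in TA, against 13.1% of all genes in that direction and 3.48% in the other. Counts of 4 and 0 in 17 are few, and the members that passed the filter are not all members. Without TA replicate 3 and GS replicate 2, the libraries that stood apart, Kif3b was at 0.92 and Kif21b at 0.77 on the log2 scale. With only 2 pools left per muscle, 6 of the 17 kinesins then tested were higher in every TA pool and 4 in every GS pool. The shares of all genes were 29.9% and 10.8% in that setting, which was chosen after seeing the data. Those 17 were not the same genes as above. Kif22 fell below the filter, and Kif20b, among the 4, passed it through its high value in GS replicate 1.

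The whole table leaned towards TA, with a median log2 difference of 0.24 over all genes tested, and more genes were detected in TA pools. The 12 transport kinesins tested had a median of 0.17, which is 0.07 below that of all genes, with 9 above 0 and 3 below, and a median of -0.035 after each library was centred on its own median. The 2 mitotic kinesins tested were at 0.63 and 0.30. After each library was centred on its median or quantile normalized, Kif3b and Kif21b still did not overlap and were higher in TA, Kif5a and Kif20a did overlap, and Kif3a no longer overlapped and was higher in GS. Of all genes, 7.81% and 7.37% were then higher in every TA pool after centring and after quantile normalization, and 6.81% and 6.97% in every GS pool. Over all genes, 19 were called higher in TA and 14 higher in GS, against 11 and 17 after centring and 16 and 19 after quantile normalization.

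Intervals set how large a difference the data leave room for. The 95% intervals of the log2 difference are not adjusted for the number of genes. For Kif1a, Kif5a, Kif5c, Kif3a, Kif21a and Kif2a they lay within -0.85 and 0.99. Other kinesins of at least 10 RPKM reached beyond that. The intervals of Kif1b and Kif3c ran from -0.17 to 1.18 and from -0.37 to 1.52. Those of Kif5b and Kifc2 ran from -1.03 to 1.04 and from -0.58 to 1.04. For Kif22 and Kif16b they ran from -1.08 to 1.67 and from -1.10 to 1.44. The 12 kinesins of at least 10 RPKM had a median coefficient of variation of 23.6% over the 6 libraries, against 35.8% for all 3076 genes at that level, given as a description.

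**Figure D4:**
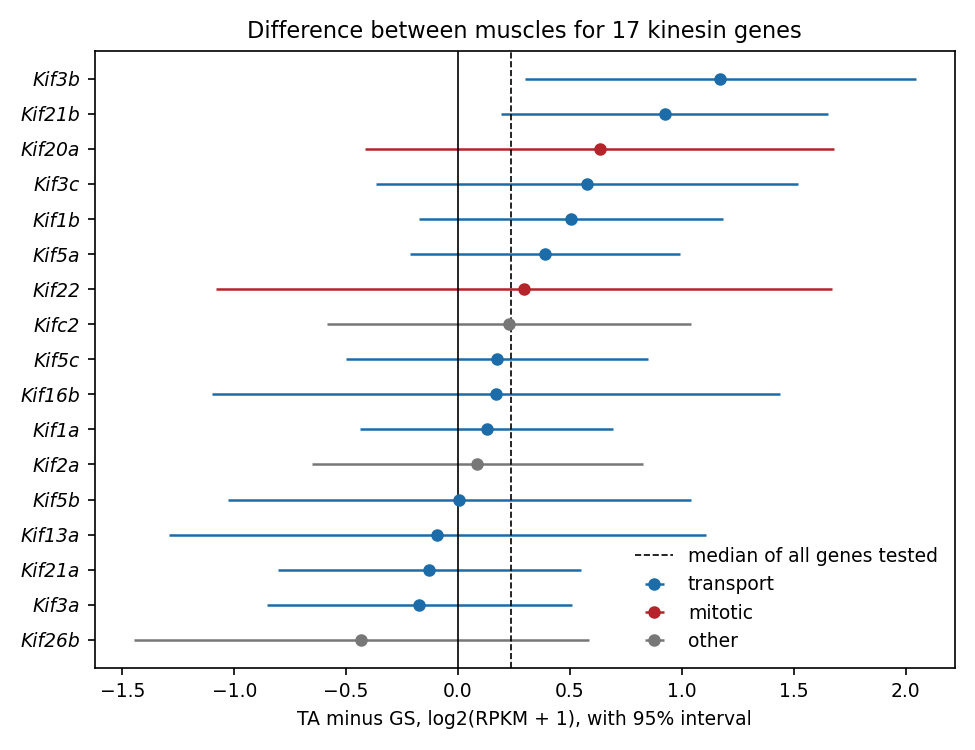
Difference between TA and GS in log2(RPKM + 1) for the 17 kinesins tested, with 95% intervals, coloured by role, with a dashed line at the median of all genes (0.24). Only the intervals of Kif3b and Kif21b exclude 0, and neither gene passed adjustment over all genes.

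Partners of the kinesins and the opposing motor were examined as lists of 59 genes, of which 54 were in the table and 49 were tested. None was called, against the same 0.305%, and 3 had an unadjusted p under 0.05, against 10.4%. Their median log2 difference was 0.17, against 0.24 for all genes. In 3 of the 49 the TA values lay above all GS values, against 13.1% of all genes, and in 1 below, against 3.48%.

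Kinesin light chains link kinesin-1 to cargo, and 4 of the 5 genes in the list of light chains and Kifap3 were tested. Klc1, the main neuronal light chain, was at 53.1, 40.5 and 47.5 RPKM in the TA pools and 24.5, 97.1 and 55.6 RPKM in the GS pools, so the GS pools lay on both sides of the TA pools. Klc2 averaged 14.4 ± 3.37 RPKM over the TA pools and 7.59 ± 5.72 RPKM over the GS pools (SD, n = 3), with a limma adjusted p of 0.517.

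Cargo adaptors, 19 tested, held the smallest p of the partner genes. Rhot2, also called Miro2, which tethers motors to mitochondria, was at 14.4, 7.49 and 12.2 RPKM in the TA pools, against 1.24, 0.307 and 5.60 RPKM in the GS pools. All TA pools were above all GS pools, with a log2 difference of 2.16 ± 0.59 and a limma adjusted p of 0.268. Its paralog Rhot1 was at 6.18 ± 1.24 and 6.89 ± 2.82 RPKM in TA and GS. Mapk8ip2, a JIP scaffold that binds light chains, was at 32.1, 20.2 and 37.8 RPKM in the TA pools and 5.49, 4.68 and 21.3 RPKM in the GS pools, where GS replicate 3 reached into the TA range, with an adjusted p of 0.336. Arl8b and Arl8a, lysosomal GTPases that recruit kinesin, had the highest means and did not separate the muscles, at 45.1 ± 11.6 and 48.6 ± 19.5 RPKM for Arl8b and 45.1 ± 12.8 and 34.8 ± 16.9 RPKM for Arl8a in TA and GS.

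Cytoplasmic dynein carries cargo back to the cell body. Its heavy chain Dync1h1 was at 68.0, 67.3 and 101 RPKM in the TA pools and 44.8, 46.1 and 61.1 RPKM in the GS pools, without overlap, with a limma adjusted p of 0.532. The light chains Dynlrb1 and Dynlt3 had the highest means, at 154 ± 33.5 and 158 ± 27.0 RPKM for Dynlrb1 and 75.6 ± 12.9 and 108 ± 28.6 RPKM for Dynlt3 in TA and GS. In dynactin, the cofactor of dynein, Dctn3 was at 102 ± 20.9 and 61.4 ± 22.0 RPKM and Actr1a at 67.0 ± 30.1 and 43.0 ± 6.92 RPKM in TA and GS. Actr10 was at 11.7, 7.74 and 13.4 RPKM in the TA pools and 30.3, 17.1 and 14.8 RPKM in the GS pools, the only partner gene with all GS pools above all TA pools, and had an adjusted p of 0.514.

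Among the genes that the authors listed for either muscle there was 1 kinesin. Kif18b, a plus-end motor of the mitotic spindle, stood in the authors' deposited table for TA, which has 395 genes, with a scaled signal of 108.6 in TA and 0 in GS, a p-value of 0.033 and an adjusted p-value of 0.8483. In the 6 libraries Kif18b rested on 81 and 48 net reads in TA replicates 2 and 3, or 1.72 and 0.407 RPKM, and was listed at 0 in TA replicate 1 and in the 3 GS libraries. It lies within AL731670.1 on the opposite strand, which was at 0 to 0.505 RPKM. It lay below the filter, so limma gave no value, and with 1 of 3 TA pools at 0 the groups share that value. The authors' deposited table for GS, which has 334 genes, held no kinesin, and neither list held a gene of the partner lists.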

How the data were processed

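RNA of 6 pools, 3 per muscle, was extracted, amplified and sequenced on an Illumina HiSeq, per the labels' protocols. Per the submitters' processing notes, mm9 was the build and Bowtie 0.12.9 and DESeq were among the tools. How reads were assigned to genes, and whether by strand, is not stated in these sources. The deposited table gives net reads and RPKM per gene and library, per the file headers. In 683 genes a value lies below 0, for reasons not stated, and all 38 mitochondrial genes are listed at 0 in every library, so a 0 is called listed at 0. In the authors' deposited lists each gene has a scaled signal per muscle, the ratio (fold) of the GS to the TA signal, and p-values before and after adjustment.

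Genes with a value below 0 were left out of the tests and of the kinesin sums. The sum of markers of dividing cells kept Prc1, which has such a value. The entry with the highest mean was kept per symbol, and genes with a mean of at least 1 RPKM were tested. The muscles were compared on log2(RPKM + 1) in limma (version 3.58.1, R 4.3.3), by a model of muscle alone with a mean-variance trend and Benjamini-Hochberg adjustment over 10828 genes, and genes were called at an adjusted p under 0.05. Differences are TA minus GS on that scale, which understates the change of low genes. With 3 pools per muscle no exact permutation test can pass, so ratios and sums have no test. Overlap of groups, alternative settings and leaving out each library were computed as well, and the fit was tested on simulated data. The members and lists were chosen with earlier results of these data known. Library values were given for members of at least 10 RPKM, mitotic ones of at least 1 RPKM, the 6 with the smallest p, listed ones, and others singled out after their values were seen. From each partner list the 2 highest and the 2 with the smallest p were named, and others were singled out afterwards. Coordinates are those of the table, with the end as the last base.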

Additional observations from a re-analysis of the deposited data

How the results depend on the processing

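No kinesin was called in limma under any of the 17 alternatives, and the lowest adjusted p of any kinesin ranged from 0.162 to 0.813, with 0 to 3 kinesins at an unadjusted p under 0.05. Kif3b kept its direction throughout, at 0.90 to 1.51, as did Kif21b at 0.72 to 1.01, and 9 of the 17 kinesins kept theirs in every setting where they were tested. Reversed values lay near 0 for the most part. Median centring gave -0.032 for Kif5c, -0.079 for Kif1a, -0.038 for Kif16b, -0.12 for Kif2a and -0.20 for Kif5b, and quantile normalization gave -0.11 for Kif22, -0.028 for Kif16b, -0.034 for Kif2a and -0.10 for Kif5b. A pseudocount of 5 RPKM gave -0.027 for Kif5b. Leaving out 1 library gave a lowest and highest value of -0.0087 and 0.33 for Kif5c, -0.31 and 0.033 for Kif21a, -0.27 and 0.66 for Kif16b, -0.09 and 0.27 for Kif2a, -0.50 and 0.39 for Kif13a and -0.28 and 0.51 for Kif5b. Without TA replicate 3 and GS replicate 2 together, an alternative chosen after seeing the data, Kif2a was at -0.18 and Kif13a at 0.13. The median of mitotic kinesins was -0.47 there, over a changed set of genes. Kif22 fell below the filter, Kif20b passed it through 3.42 RPKM in GS replicate 1, and Kif20a was at 0.32. In that setting 6 kinesins were all higher in TA and 4 all higher in GS, with Kif20b among the 4. The cause was not tested.

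Kinesins whose TA values all lay above GS numbered 4 as reported, 2 after median centring and 2 after quantile normalization, with 1 the other way in each, and 4 to 6 and 0 to 2 without 1 library, where 16.7% to 24.4% of all genes lay that way towards TA and 5.28% to 8.31% towards GS. Without TA replicate 3, Kif3a and Kif21a were higher in GS without overlap, and without GS replicate 2, Kif26b was. All genes called higher in TA and GS numbered 7 and 6 with a pseudocount of 0.1 RPKM, 14 and 8 with 5 RPKM, 0 and 0 with no filter, 9 and 8 with a mean of at least 5 RPKM, 11 and 17 after centring, and 1 and 0 without TA replicate 3 and GS replicate 2. They numbered 1 and 2 without TA replicate 1 or 2, 1 and 1 without TA replicate 3, 3 and 3 without GS replicate 1, 19 and 10 without GS replicate 2, and 16 and 7 without GS replicate 3. The replicate block gave 8 and 8 genes. The labels do not state whether pools of the same number belong together. Deviations of same-numbered pools correlated at -0.07, -0.02 and -0.14, and no pool correlated best with the pool of its own number. With deviations taken over 3 pools per muscle, these values cannot tell whether the pools were paired. Without Kif1a the transport share was 87.9% in TA and 86.8% in GS. Depth limits the low members, as Kif9 rests on at most 7 net reads per GS library and Kif2c on at most 28 net reads in any library.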
